A study of Rattus norvegicus with 32 samples.

Results

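Transcripts of 36 genes of hepatic fatty acid oxidation were followed through the livers of rats with and without corticosteroid-binding globulin (CBG): PPAR-alpha itself and its co-activator, the enzymes of mitochondrial and peroxisomal oxidation, 2 enzymes of ketone body metabolism, and further genes known as PPAR-alpha targets. The genes were taken by symbol from a list of the pathway's members, which was chosen with earlier results of these data known. All 36 were found among the 17327 genes of the count table. All 36 were also among the 11002 that passed the filter on low counts. Liver messenger RNA of 32 Sprague Dawley rats had been sequenced in 8 groups of 4. The groups were 30-day and 60-day females and males, each as wild type (WT, Cbg+/+) or as knockout (KO, Cbg-/-). In the KO rats Serpina6, the gene for CBG, had been disrupted in the whole animal with CRISPR/Cas9; how many founder lines were used is not stated in the labels. CBG is the plasma protein that binds corticosterone, and all rats were kept under basal conditions with no further agent.

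PPAR-alpha is a nuclear receptor that binds DNA together with RXR and, when fatty acids reach it during fasting, raises the transcription of the genes that burn them. A fatty acid is taken up, bound by a carrier, activated to its acyl-CoA ester and passed into mitochondria by the carnitine shuttle. There it is shortened in repeated turns of dehydrogenation, hydration, a further dehydrogenation and thiolysis, with electrons leaving through the electron transfer flavoprotein. The acetyl-CoA that the liver does not burn is made into ketone bodies, very long chains are shortened in peroxisomes, and microsomal Cyp4a enzymes oxidize the omega end. Liver is also a tissue in which growth hormone and sex steroids set different transcript levels in adult males and females.

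Levels below are read counts scaled to library size (CPM, as in edgeR), scaled between libraries by TMM, with mean ± SD over n = 4 livers. Differences are log2 fold changes ± SE from edgeR's quasi-likelihood test, fitted once to all 32 libraries and adjusted by the Benjamini-Hochberg method over the 11002 genes. A gene was called at an adjusted p below 0.05, and "higher" or "lower" as a count means called. Gene reads ranged from 12951969 to 21954929 per library, with every 30-day library at 16806943 or more and every 60-day library at 17133332 or less. Serpina6 fell in KO livers of every sex and age, by 3.59 and 4.00 on the log2 scale in 30-day females and males, and by 3.44 and 2.95 in 60-day females and males. Hepatocyte markers took 148700 to 226900 CPM in all libraries, and markers of skeletal and heart muscle, tissues that also burn fat, summed to 0.900 CPM at most. In 1 library, replicate 1 of the 60-day KO females, photoreceptor markers reached a total of 1849 CPM, where the other 31 had 1.95 to 9.41 CPM. In whole tissue, fewer cells of a type and less RNA per cell cannot be told apart.

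The upstream sequence of 31 of the 36 genes was found by symbol in RefSeq (assembly GRCr8); Acadl, Acaa2, Decr1, Cyp4a1 and Vnn1 were not matched. The 250 bases before each start were searched on both strands for the direct repeat that PPAR-alpha and RXR bind, written as AGGTCANAGGTCA, with up to 2 of its 12 fixed bases different. A match was found in 4 of 31 genes (12.9%), against 3.15% of all 33469 promoters of this length; 0 of the 31 and 0.0508% of all promoters held it without a mismatch. The matches are shown because 1 of them lies before Fabp1, which rose in 60-day KO females; capitals mark the match, on the strand of the gene, with 30 bases or fewer on each side.
Fabp1, plus strand, chr4:104749233-104749305: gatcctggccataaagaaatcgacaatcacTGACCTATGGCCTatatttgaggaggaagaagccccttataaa
Acadvl, minus strand, chr10:55236706-55236752: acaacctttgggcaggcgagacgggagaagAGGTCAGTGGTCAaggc
Slc27a2, plus strand, chr3:134257995-134258067: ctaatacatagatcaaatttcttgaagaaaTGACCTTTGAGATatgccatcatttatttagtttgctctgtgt
Etfa, minus strand, chr8:64788077-64788149: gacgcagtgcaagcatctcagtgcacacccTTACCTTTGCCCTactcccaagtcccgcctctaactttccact
The matches before Fabp1 and Acadvl differed from the repeat at 1 base and those before Slc27a2 and Etfa at 2. They describe these letters only, since no binding was measured. With 3 mismatches allowed, 35.5% of the 31 genes and 21.4% of all promoters held a match.

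Across the 8 groups most of the 36 genes had a highest group mean of no more than 3 times the lowest. The ratio of the highest to the lowest group mean had a median of 1.85; it was under 1.5 in 11 genes, from 1.5 to 3 in 19 and over 3 in 6. The steadiest was Acadvl, the very-long-chain acyl-CoA dehydrogenase, whose group means ran from 319 to 342 CPM, a ratio of 1.08. The 6 widest were Cyp4a2 (60.7), Cd36 (22.7), Vnn1 (4.53), Cyp4a1 (4.45), Ppargc1a (4.24) and Pdk4 (3.36). Within groups the coefficient of variation had a median of 10.5% over the genes, was under 10% in 17 and over 25% in 5, namely Cyp4a1, Fgf21, Angptl4, Cd36 and Ppargc1a.

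**Figure D1:**
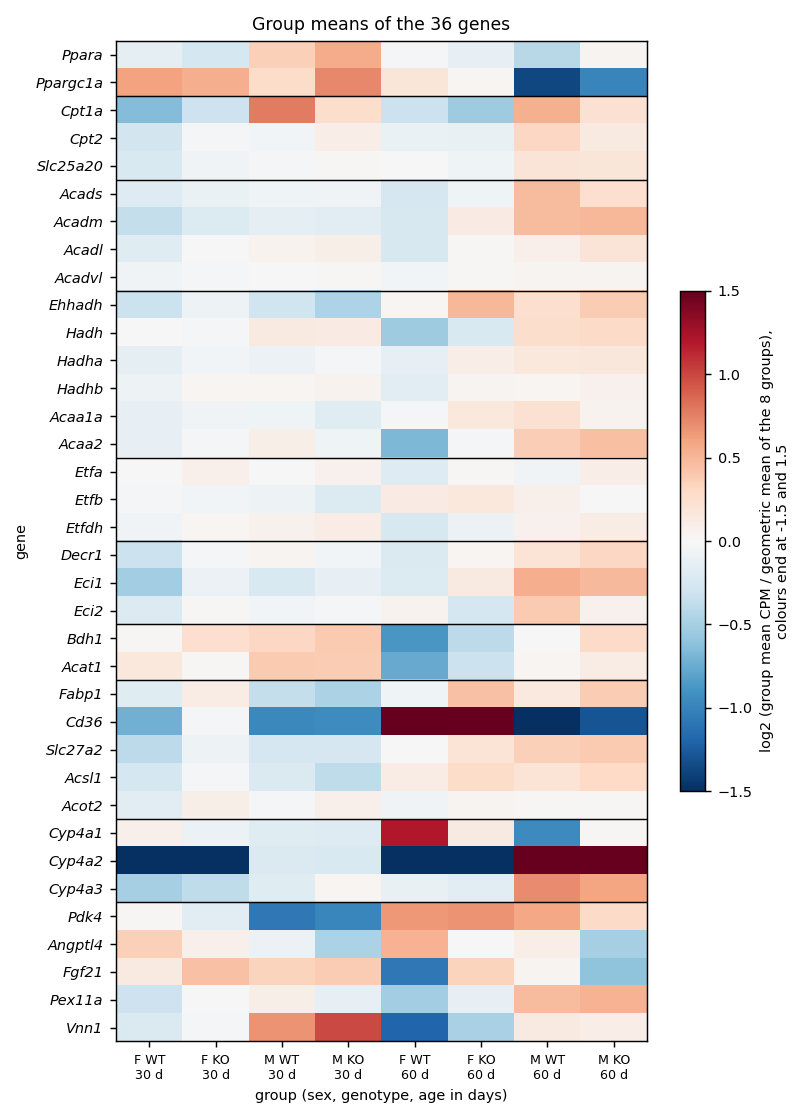
Heat map of the 36 genes (rows, in order of role, with lines between roles) in the 8 groups (columns), coloured by the log2 ratio of the group mean CPM to the geometric mean of the 8 groups, with the colours ending at -1.5 and 1.5. Cyp4a2 and Cd36 carry the widest differences, in opposite directions between 60-day males and females, while Acadvl has almost the same mean in all groups.

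In 60-day females, several enzymes of the mitochondrial spiral and both listed enzymes of ketone body metabolism were higher in KO than in WT livers. Of the 36 genes 9 rose and 1 fell (27.8%), against a background of 6.77% of all genes called in this comparison. The list was chosen with earlier results of these data known, so the 2 shares are given as a description and not as a test of the list. The median log2 fold change of the 36 was 0.19, and 25 of 36 were above 0, against a median of 0.01 over all genes tested. The changes were small: apart from Fgf21, the 8 that rose did so by 1.17 to 1.56 times. By the same edgeR test 0 of the 36 were called in 30-day females (background 0.3%), 30-day males (background 0.0545%) and 60-day males (background 0.209%). At an unadjusted p below 0.05 there were 7, 1 and 3 of 36 in the same order, against 10.7%, 5.94% and 10.8% of all genes. DESeq2 called 1, 0 and 1 of the 36, and 92, 26 and 65 genes in all.

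Acadm, the medium-chain acyl-CoA dehydrogenase of the first step, stood at 549, 550.3, 509 and 592 CPM in WT and at 692, 700.2, 728 and 719 CPM in KO females of 60 days. All 4 KO livers lay above all 4 WT livers, a rise of 0.37 ± 0.06 (adjusted p = 0.000768). The other 3 acyl-CoA dehydrogenases were not called: their log2 fold changes were 0.20 for Acads, which acts on short chains, 0.27 for the long-chain Acadl and 0.05 for Acadvl. Acads did not overlap between the groups either, with 119 to 134 CPM in WT and 136 to 157 CPM in KO.

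Of the 6 hydratases, hydroxyacyl dehydrogenases and thiolases, 4 rose and the other two were above 0 without a call. Acaa2, the mitochondrial 3-ketoacyl-CoA thiolase that closes each turn of the spiral, stood at 369.7, 390.2, 296 and 494 CPM in WT and 540.0, 499.9, 755 and 619 CPM in KO, a rise of 0.64 ± 0.12 (adjusted p = 0.00181). The lowest KO liver was just above the highest WT liver. Hadh, the short-chain hydroxyacyl-CoA dehydrogenase, had the least spread within groups of all 36 genes, with 169.9, 159.9, 159 and 162 CPM in WT and 196, 203, 200.3 and 205 CPM in KO, a rise of 0.31 ± 0.06 (adjusted p = 0.00299). Ehhadh, the peroxisomal bifunctional enzyme and a classical PPAR-alpha target, stood at 378, 389.5, 308 and 409 CPM in WT and 462, 473, 628 and 491 CPM in KO, a rise of 0.47 ± 0.14 (adjusted p = 0.0312). The groups did not overlap for Hadh or Ehhadh, and 1 KO liver of Ehhadh, at 628 CPM, was the highest of all 32.

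Hadha and Hadhb encode the subunits of the mitochondrial trifunctional protein and start on opposite strands with overlapping upstream windows (chr6:31907551-31907800, plus strand, and chr6:31907501-31907750, minus strand). Hadha stood at 284, 341, 289.8 and 339 CPM in WT and 357, 344, 388 and 378 CPM in KO, a rise of 0.23 ± 0.07 (adjusted p = 0.0377) without overlap. Hadhb moved by 0.22 ± 0.10 (adjusted p = 0.221), with WT livers at 150.1, 212, 149.6 and 209 CPM and KO livers at 205, 184, 238 and 212 CPM. For both subunits WT replicates 1 and 3 were low and WT replicates 2 and 4 were high. The same order held in Decr1, the dienoyl-CoA reductase, at 99.2, 162, 111 and 169.6 CPM, in Eci1, the mitochondrial enoyl-CoA isomerase, at 56.2, 129, 78.0 and 137 CPM, and in Acot2, the mitochondrial thioesterase, at 16.5, 29.8, 15.0 and 37.1 CPM. This spread within the WT group is part of the error of these genes, none of which was called apart from Hadha.

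Both ketone body enzymes of the list rose. Bdh1, which turns acetoacetate into 3-hydroxybutyrate, stood at 220.0, 161, 227 and 187 CPM in WT and 236, 282, 299 and 294 CPM in KO females, a rise of 0.48 ± 0.09 (adjusted p = 0.00143). Acat1, the mitochondrial acetoacetyl-CoA thiolase, stood at 181, 167, 143 and 186 CPM in WT and 234, 212, 219 and 248 CPM in KO, a rise of 0.43 ± 0.11 (adjusted p = 0.0129). No KO liver was as low as any WT liver for either enzyme.

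Fabp1, the liver fatty acid binding protein whose promoter match is shown above, stood at 3401, 2442, 3356 and 3450 CPM in WT and 4147, 3904, 4724 and 5260 CPM in KO females, a rise of 0.51 ± 0.14 (adjusted p = 0.0196). WT replicate 2 was the low liver, and the groups did not overlap. Fgf21, a hormone that the liver secretes in fasting, was at a low level, with 2.05, 0.807, 1.17 and 1.77 CPM in WT and 4.35, 1.42, 4.67 and 5.01 CPM in KO, a rise of 1.43 ± 0.43 (adjusted p = 0.0397). KO replicate 2 lay within the WT range, so the groups overlapped. The other genes with a promoter match moved by 0.05 (Acadvl), 0.22 (Etfa, the alpha subunit of the electron transfer flavoprotein) and 0.20 (Slc27a2, a very-long-chain acyl-CoA synthetase), none of them called.

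Eci2, an enoyl-CoA isomerase of mitochondria and peroxisomes, was the 1 gene that fell. It stood at 159, 164, 153 and 182 CPM in WT and 118, 134, 137 and 136 CPM in KO females, a change of -0.33 ± 0.08 (adjusted p = 0.0118). In 60-day males it stood at 209, 206, 233 and 183 CPM in WT and 149.7, 167, 168 and 179 CPM in KO, a difference of -0.32 ± 0.08 (adjusted p = 0.0931) that missed the call. In neither sex did a KO liver reach the lowest WT liver of that sex, and DESeq2 called the difference in males too.

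Neither of the 2 regulators and none of the 3 genes of the carnitine shuttle was called in 60-day KO females. Ppara, the receptor, was at 24.1 ± 6.75 CPM in WT and 22.3 ± 6.23 CPM in KO, a difference of -0.11 with a 95% interval of -0.68 to 0.45. Ppargc1a, the co-activator of oxidative genes, was at 3.04 ± 0.939 and 2.74 ± 1.42 CPM. Cpt1a, the rate-limiting carnitine palmitoyltransferase of the outer membrane, was at 154 ± 46.5 and 133 ± 18.3 CPM, a difference of -0.21 with an interval of -0.76 to 0.34. The intervals of Cpt2 and Slc25a20, the other genes of the shuttle, were -0.30 to 0.28 and -0.25 to 0.15. Both lie below the estimated rise of Acadm (0.37), but that estimate has its own error and no test compared the genes.

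Among the further PPAR-alpha targets, Pdk4, the kinase that shuts off pyruvate dehydrogenase, was at 113 ± 43.6 CPM in WT and 116 ± 8.08 CPM in KO females. Angptl4, a secreted inhibitor of lipoprotein lipase, had the opposite sign to the enzymes (-0.52), while Pex11a, a peroxisome division factor, and Vnn1, a pantetheinase, were at 0.40 and 0.71. None of these 4 was called. Cyp4a1, an omega hydroxylase, stood at 228, 213, 235 and 257 CPM in WT and 29.4, 154, 138 and 125 CPM in KO females, with a log2 difference of -1.06 ± 0.52 (adjusted p = 0.251). The groups did not overlap with or without KO replicate 1, the low liver and the one with photoreceptor transcripts, and Cyp4a1 had the widest spread within groups of the 36.

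**Figure D2:**
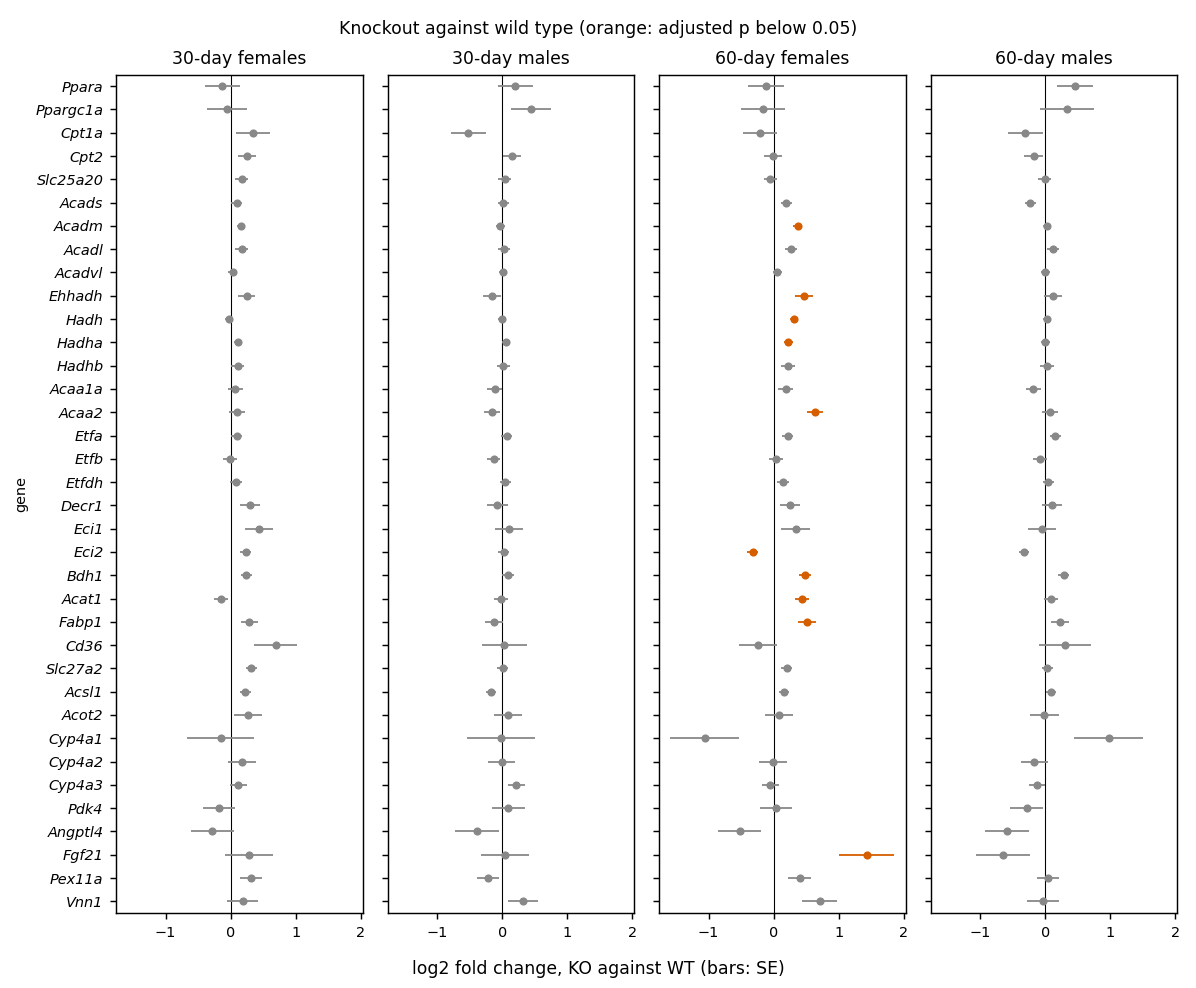
Log2 fold change of KO against WT with its SE (horizontal axis) for the 36 genes (rows) in each sex and age (panels). Orange marks an adjusted p below 0.05: 10 genes in 60-day females and 0 in the other 3 panels.

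The 10 calls differed in how firmly they stood. With each of the 8 livers left out in turn, Acadm, Acaa2, Bdh1 and Hadh were called in all 8 fits, Acat1 in 7, Eci2 and Fabp1 in 6, Ehhadh in 5, Hadha in 3 and Fgf21 in 2. The count of called members ranged from 6, without WT replicate 3, to 12, without KO replicate 2, and was 7 without KO replicate 1, the liver with photoreceptor transcripts. In a fit to the 8 compared libraries alone 0 of the 36 were called: the fold changes stayed between 0.23 and 1.43 in size, with adjusted p from 0.0832 to 0.297, and 56 genes were called in all. That fit estimated the spread from fewer libraries and also set its own filter (10263 genes tested) and scaling. What lost the calls was not tested.

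Clock genes differed between the same groups. Of 12 clock genes tested, Dbp, Tef, Per2 and Per3 rose in 60-day KO females and Npas2 fell, against 6.77% of all genes called. A clock score (mean log2 CPM of Arntl, Npas2 and Clock minus that of Dbp, Tef, Per3 and Nr1d2) ran from 1.34 to 2.38 in WT and from -0.58 to 1.24 in KO females. With this score as a covariate 2 of the 36 were called, Acaa2 with 0.89 (adjusted p = 0.00429) and Acadm with 0.43 (adjusted p = 0.0229), and 62 genes in all. The log2 fold changes of the 10 were then 0.22 to 1.34 in size, with adjusted p of up to 0.437. They were larger in size than without the score for Acadm, Ehhadh (0.675 against 0.469), Hadh, Hadha, Acaa2 and Bdh1. For Acat1, Fabp1, Fgf21 and Eci2 (-0.222 against -0.325) they were smaller. The score did not overlap between the 2 groups, so clock phase and genotype cannot be told apart here. Stellate cell and fibroblast markers summed to 275 to 445 CPM in WT and 447 to 477 CPM in KO females with 0 of 7 called, and cholangiocyte markers to 14.2 to 15.4 and 16.8 to 20.5 CPM with 1 of 4 called. Sums of Kupffer cell, endothelial and hepatocyte markers overlapped between the groups. The part of clock phase and cell composition in these differences was not tested further.

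In 60-day males none of these 10 genes was called. Acadm was at 902 ± 64.1 CPM in WT and 917 ± 53.7 CPM in KO males, a difference of 0.02 with a 95% interval of -0.11 to 0.16. Acaa2 differed by 0.08 (interval -0.17 to 0.32) and Hadh by 0.02 (interval -0.10 to 0.15). For Acadm and Hadh these intervals lay below the estimated rise in females (0.37 and 0.31), which has its own error. Bdh1 stood at 349.6, 389, 372 and 344 CPM in WT and 456, 446, 439 and 428 CPM in KO males, without overlap, at 0.28 ± 0.09 (adjusted p = 0.202). Fgf21 had the opposite sign in males, with 3.72, 2.68, 3.37 and 2.88 CPM in WT and 2.21, 1.92, 1.89 and 2.05 CPM in KO.

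The test of the difference between the sexes called none of the 36 at 60 days, where 0.136% of all genes were called, and none at 30 days, where 0% were and DESeq2 called 0. At an unadjusted p below 0.05 there were 10 of 36 at 60 days, against 10.6% of all genes, and 7 of 36 at 30 days, against 5.51%. The smallest adjusted p at 60 days belonged to Acadm, whose KO effect in males minus that in females was -0.35 (adjusted p = 0.125), and DESeq2 called Acadm and Fgf21. The KO effects of the 2 sexes were thus not shown to differ by edgeR for any of these genes.

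In females the KO effect changed between 30 and 60 days for 3 of the 36 genes, against 2.96% of all genes. At 30 days Hadh stood at 223, 233, 229 and 252 CPM in WT and 198, 243, 243 and 239 CPM in KO females, and its KO effect was higher at 60 days by 0.33 ± 0.09 (adjusted p = 0.0344). Acat1 stood at 292, 356, 340.1 and 291 CPM in WT and 238, 268, 315 and 334 CPM in KO females of 30 days, and its KO effect was higher at 60 days by 0.58 ± 0.15 (adjusted p = 0.0308). Eci2 went the other way, from 133, 146, 132 and 138 CPM in WT and 139, 175, 162 and 168 CPM in KO at 30 days, with a change of -0.55 ± 0.11 (adjusted p = 0.00659). The Eci2 call held in all 16 fits that left out 1 liver, those of Hadh and Acat1 in 8 each, and a fit to the 16 female libraries alone called Eci2 only. In males 0 of 36 changed, against 0.00909% of all genes, 2 were at an unadjusted p below 0.05, where 5.34% of all genes were, and DESeq2 called 0.

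**Figure D3:**
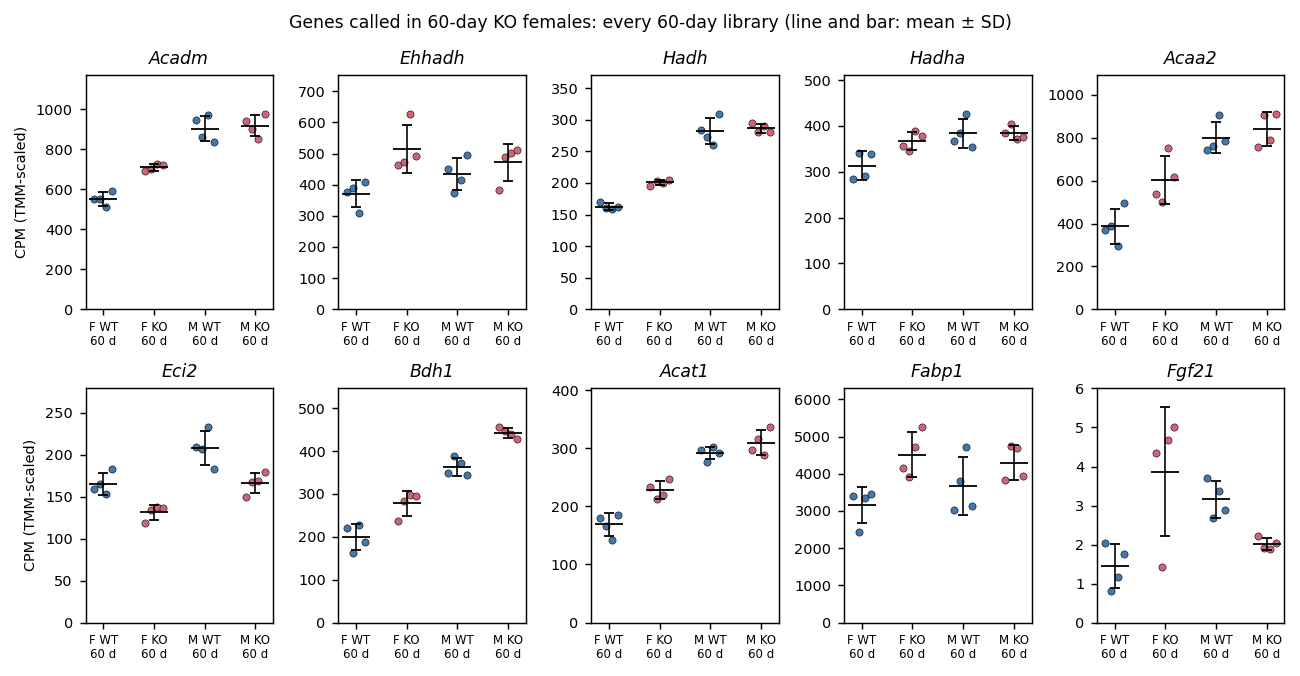
CPM (vertical axis, from 0) in every 60-day liver for the 10 genes called in 60-day KO females, by sex and genotype, with WT in blue, KO in red, and lines and bars for mean ± SD. For Hadh the KO females (196 to 205 CPM) lie between the WT females (159 to 170 CPM) and both groups of males (261 to 310 CPM).

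At 30 days 28 of the 36 genes were above 0 in KO females, with a median of 0.16 against 0.01 over all genes. The smallest adjusted p was that of Slc27a2, which stood at 595, 740.0, 703 and 719 CPM in WT and 832, 848, 943 and 808 CPM in KO females, a difference of 0.32 ± 0.09 (adjusted p = 0.114). DESeq2 called it, and its groups did not overlap. Acsl1, the main long-chain acyl-CoA synthetase of liver, was at 0.23 in 30-day females and at -0.17 in 30-day males, and in neither was it called. In 30-day males the median over the 36 was 0.02, with 21 above 0. In 60-day males the median was also 0.02, with 21 above 0. Stellate cell and fibroblast markers separated the groups in 30-day females too, at 1062 to 1454 CPM in WT and 866 to 1008 CPM in KO. Of these markers 1 of 7 was called, against 0.3% of all genes.

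Other genes of the pathway were read from lists in the same fit. The counts in 60-day KO females stand against 6.77% of all genes called. In peroxisomal oxidation 2 of 22 genes (9.09%) fell and 0 rose, a share near that of all genes. Hacl1, the lyase of alpha-oxidation, fell by 1.27 ± 0.27 from 252 to 105 CPM (adjusted p = 0.00566), and Abcd2, a peroxisomal transporter of very-long-chain acyl-CoA, fell by 1.54 ± 0.37 from 6.04 to 2.09 CPM (adjusted p = 0.0108).

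Among further genes of ketone body metabolism Acat2, the cytosolic thiolase that feeds sterol synthesis, fell by 1.08 ± 0.28 from 37.5 to 17.62 CPM (adjusted p = 0.0167). Of 21 genes of carnitine and acyl-CoA handling 1 fell, the carnitine transporter Slc22a5, by 0.56 ± 0.16 (adjusted p = 0.0299), and 0 rose, a share of 4.76%. Of 13 genes of lipid droplets and lipolysis 2 rose, Mgll (0.41 ± 0.11) and Lipc (0.33 ± 0.10), and 1 fell, the hormone-sensitive lipase Lipe, by 0.83 ± 0.18, together 23.1%. Of 8 thioesterases 0 were called, with 0 at an unadjusted p below 0.05, and of 26 regulators 0, with 5 at an unadjusted p below 0.05, where 20.8% of all genes were. Of 10 other fatty acid hydroxylases and omega-oxidation enzymes 2 fell, Adh7 by 0.85 ± 0.20 and Cyp4a8, which was barely measured at 0.453 CPM in WT and 0.05 CPM in KO, together 20% of the list. Of 15 glucocorticoid targets 3 fell (20%), Pck1, Klf9 and Zbtb16, and 0 rose. In 30-day females, where 0.3% of all genes were called, Cidec rose by 0.37 ± 0.08 and Lpl fell by 1.26 ± 0.23, both of the lipid droplet list. In males of either age 0 genes of these lists were called. Few genes were called there in all, 0.0545% at 30 days and 0.209% at 60 days.

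Sex differences were called in more of these genes than genotype differences. At 60 days 19 of the 36 were higher and 3 lower in WT males than in WT females, against a background of 26.4%. In KO livers 11 were higher and 1 lower, against 18.5%. The median difference was 0.31 in WT and 0.18 in KO, beside 0.00 and -0.02 over all genes. At 30 days there were 3 higher and 1 lower in WT (background 2.07%) and 2 higher and 2 lower in KO (background 2.24%). The comparisons of sex in WT and of genotype in females share the WT females of 60 days, so a low value there raises both.

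Enzymes of several steps were higher in WT males of 60 days. Hadh was at 163 ± 4.95 CPM in WT females and stood at 284, 274, 261 and 309.8 CPM in WT males, a difference of 0.79 ± 0.06 (adjusted p = 5.57e-11). In KO livers the difference was 0.51 ± 0.06 (adjusted p = 3.03e-07). Acadm stood at 944, 862, 968 and 834 CPM in WT males against 550.0 ± 34.01 CPM in WT females, a difference of 0.71 ± 0.06 (adjusted p = 9.14e-10), and the difference was 0.37 ± 0.06 (adjusted p = 7.53e-05) in KO. The sexes did not overlap in either genotype for either enzyme.

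Bdh1 was higher in WT males by 0.87 ± 0.09 (adjusted p = 1.1e-08) and in KO males by 0.67 ± 0.09 (adjusted p = 1.58e-06). Acads, at 134, 119, 129 and 128 CPM in WT females and 194, 179, 207 and 264 CPM in WT males, was higher by 0.73 ± 0.09 (adjusted p = 1.06e-07), and in KO males by 0.31 ± 0.09 (adjusted p = 0.00892). Both enzymes separated the sexes without overlap. The further genes higher in WT males were Acaa2, Acat1, Acadl, Hadha, Etfdh, Eci1, Eci2, Decr1, Cpt1a, Cpt2, Slc27a2, Pex11a, Vnn1, Cyp4a2 and Cyp4a3, and those lower were Cd36, Cyp4a1 and Ppargc1a. Leaving out 1 liver lost the calls of Acadl, Decr1, Eci1, Cpt1a and Cpt2 in 1 to 3 of 8 fits, and those of Acadl, Decr1, Cpt2 and Eci1 were all lost without WT male replicate 3. In KO livers the call of Cpt1a (0.76) was lost in all 8 such fits, with adjusted p from 0.0507 to 0.103.

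At 30 days few of the 36 differed between the sexes. Cpt1a stood at 157, 166, 73.2 and 94.2 CPM in WT females and 367, 242, 485 and 229.6 CPM in WT males of 30 days, a difference of 1.43 ± 0.27 (adjusted p = 0.00282) without overlap. In KO livers it stood at 117, 158, 197 and 149 CPM in females and 170.3, 222, 246 and 286 CPM in males, and the difference of 0.57 was not called. Pdk4 was lower in males, with 50.6, 81.2, 72.1 and 89.4 CPM in WT females and 45.7, 29.1, 24.9 and 38.1 CPM in WT males, a difference of -1.09 ± 0.25 (adjusted p = 0.0175). Vnn1 was higher in males, with 15.0, 15.5, 8.71 and 7.03 CPM in WT females and 23.96, 15.9, 23.1 and 22.2 CPM in WT males, by 0.88 ± 0.24 (adjusted p = 0.0458), and in KO males by 1.02 ± 0.23 (adjusted p = 0.0145). Fabp1 and Acsl1 were lower in KO males than in KO females of 30 days, with differences of -0.59 ± 0.14 (adjusted p = 0.0145) and -0.35 ± 0.08 (adjusted p = 0.0137). Of these, the call of Cpt1a in WT held in all 8 fits that left out 1 liver, and those of Pdk4, Vnn1, Fabp1 and Acsl1 in 3 to 5 of 8.

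**Figure D4:**
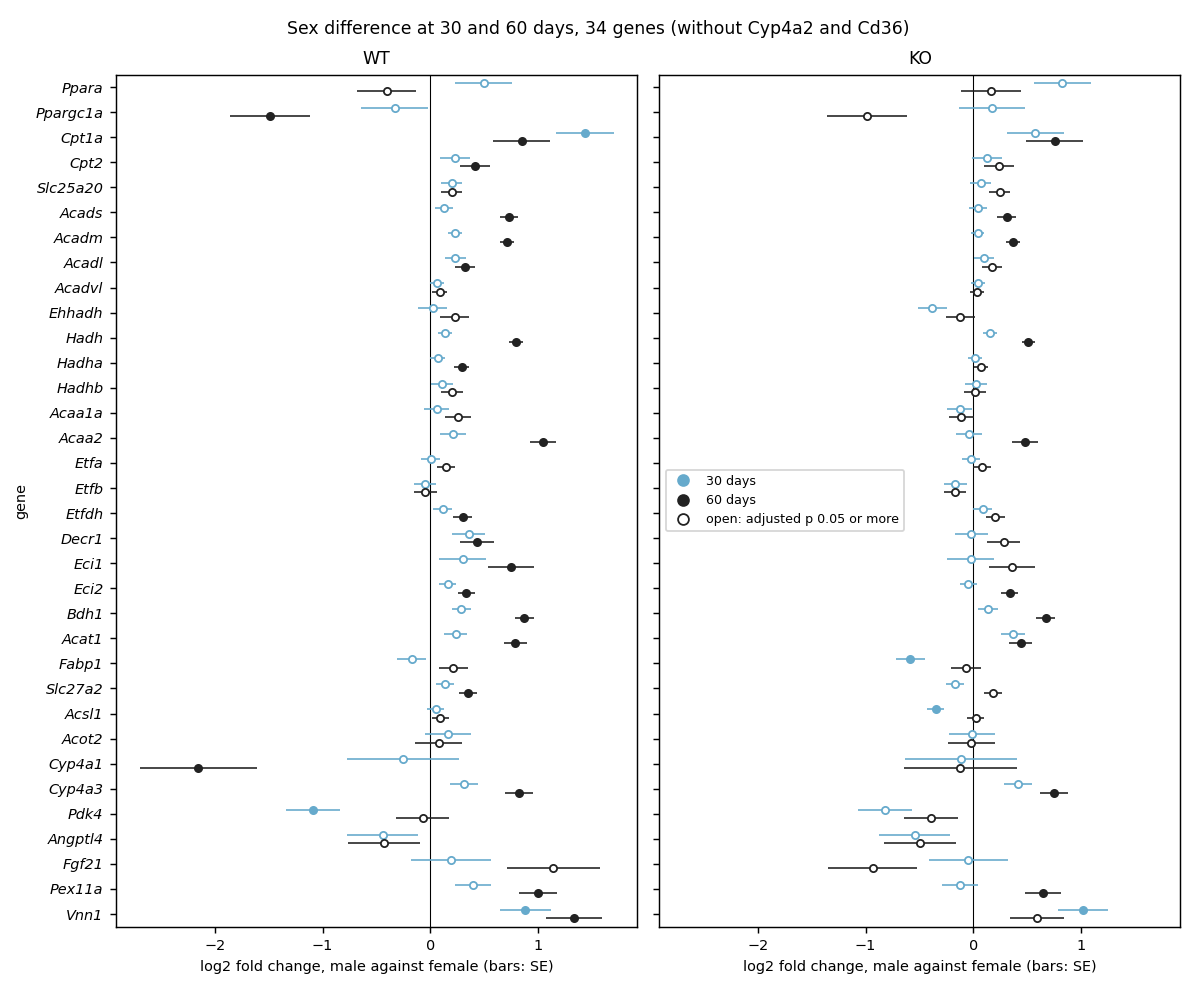
Log2 fold change of males against females with its SE (horizontal axis) for 34 of the 36 genes (rows) in WT and KO livers (panels), at 30 days (light blue) and 60 days (black). Filled points are called at an adjusted p below 0.05; the 60-day points of Acads, Acadm, Hadh, Acaa2, Bdh1 and Acat1 lie to the right of the 30-day points in WT livers.

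The sex difference changed between 30 and 60 days for 8 of the 36 genes in WT (background 9%) and 6 in KO livers (background 4.69%). In WT it grew towards males for Acads (0.61), Acadm (0.49), Hadh (0.66), Acaa2 (0.84), Bdh1 (0.58), Acat1 (0.55) and Cyp4a2 (3.63), and towards females for Cd36 (-4.24). All 8 were called in each of the 16 fits that left out 1 liver. In KO it grew towards males for Acadm (0.33), Hadh (0.36), Eci2 (0.38), Bdh1 (0.54) and Cyp4a2 (3.67), and towards females for Cd36 (-3.04). There the calls of Acadm and Eci2 held in 9 and 5 of 16 fits.

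The widest sex difference of the 36 was that of Cyp4a2, an omega hydroxylase. It stood at 52.6, 53.8, 45.6 and 48.4 CPM in WT females and 162, 232, 108 and 213 CPM in WT males of 30 days, a difference of 1.84 ± 0.22 (adjusted p = 4.87e-06). At 60 days it stood at 62.7, 64.5, 74.0 and 73.5 CPM in WT females and 2896, 3203, 3842 and 2214 CPM in WT males, a difference of 5.47 ± 0.25 (adjusted p = 1.22e-14) or 44.2 times. KO livers had 75.0, 68.6, 64.5 and 64.6 CPM in females and 3063, 2060, 2699 and 3002 CPM in males, 39.7 times. Genotype moved it by -0.01 in females and -0.17 in males of 60 days, neither called.

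Cyp4a3, its close relative, differed far less, with 552, 533, 576 and 609 CPM in WT females and 948, 1007, 1320 and 739 CPM in WT males of 60 days, a difference of 0.82 ± 0.13 (adjusted p = 1.44e-05). The upstream sequences of the pair are shown because they are nearly alike while the sex differences are not; capitals mark bases that differ in the alignment or stand against a gap.
Cyp4a2, minus strand, chr5:134170909-134171158: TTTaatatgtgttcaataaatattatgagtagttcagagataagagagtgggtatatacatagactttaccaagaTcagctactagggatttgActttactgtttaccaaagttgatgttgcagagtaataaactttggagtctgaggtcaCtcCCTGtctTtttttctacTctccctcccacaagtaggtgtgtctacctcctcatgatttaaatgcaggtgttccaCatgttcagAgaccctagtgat
Cyp4a3, minus strand, chr5:134352237-134352486: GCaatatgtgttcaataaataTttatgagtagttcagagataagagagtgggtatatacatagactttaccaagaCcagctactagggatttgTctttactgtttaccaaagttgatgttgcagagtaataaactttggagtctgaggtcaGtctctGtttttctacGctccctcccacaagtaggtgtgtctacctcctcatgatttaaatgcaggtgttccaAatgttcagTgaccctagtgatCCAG
Of the aligned pairs of bases 96.3% were the same (236 same, 9 different), with 10 positions against a gap. Transcripts of these genes are alike as well, so a read that fits several Cyp4a genes could have been counted for any of them, and the level of each is uncertain. Cyp4a1 went the other way, at 107, 29.5, 42.7 and 30.2 CPM in WT males of 60 days, against 233 ± 18.2 CPM in WT females, a difference of -2.15 ± 0.54 (adjusted p = 0.00403). In KO livers the sex difference of -0.12 was not called, with KO males at 112, 159, 24.1 and 116 CPM, and the change of its sex difference with genotype, 2.03, was not called (adjusted p = 0.321).

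Cd36, a fatty acid translocase of the plasma membrane, had the opposite pattern. It stood at 82.2, 83.0, 96.6 and 106 CPM in WT females and 3.98, 3.05, 6.61 and 2.55 CPM in WT males of 60 days, lower in males by 22.4 times, a log2 difference of -4.49 ± 0.36 (adjusted p = 4.92e-10). KO livers had 78.1, 60.4, 87.0 and 85.9 CPM in females and 2.53, 8.65, 4.76 and 4.18 CPM in males, 15.4 times apart. At 30 days the 4 group means lay between 6.29 and 12.1 CPM. Adipocytes also express Cd36, and adipocyte markers summed to 13.3 to 22.2 CPM in the 60-day WT females and 8.81 to 15.7 CPM in the WT males, ranges that overlapped. Of these markers only Cfd passed the filter on low counts, so the sums say little about adipocyte content. The part of adipocytes in the Cd36 difference was not tested.

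**Figure D5:**
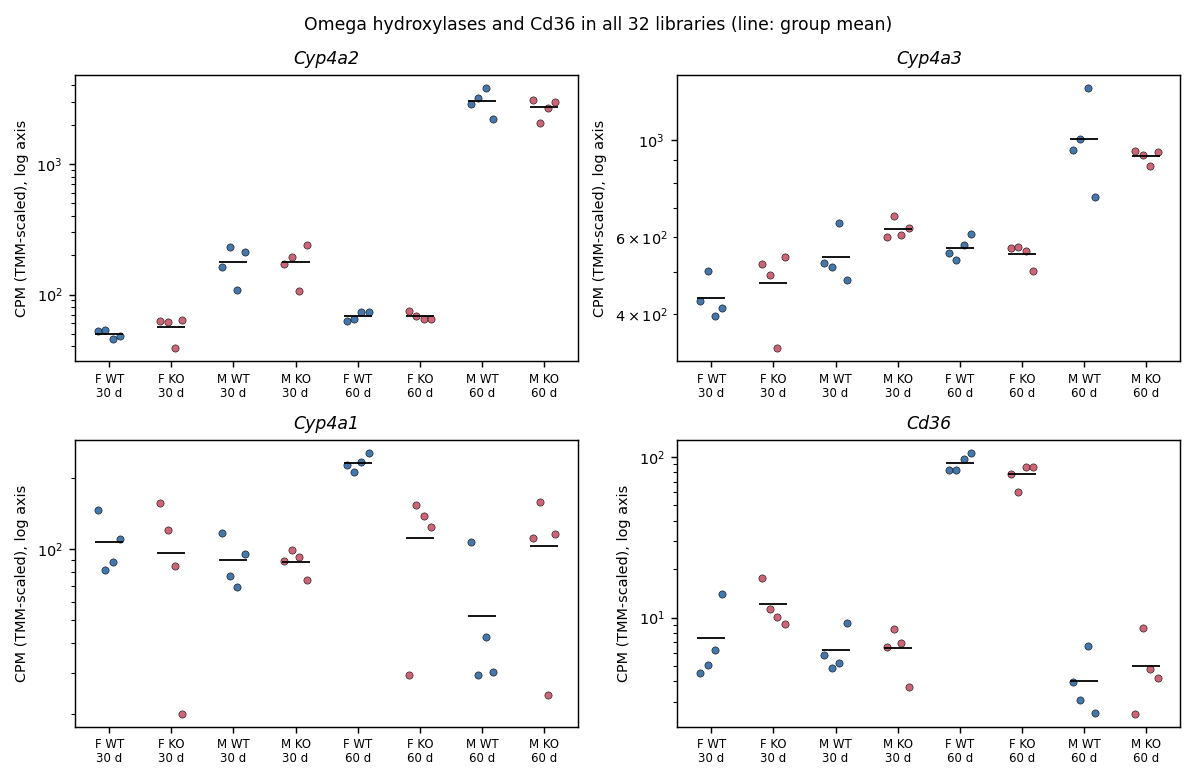
CPM on a log axis in all 32 livers (points, WT in blue and KO in red, with a line at each group mean) for 3 omega hydroxylases and Cd36. At 60 days Cyp4a2 runs from 2060 to 3842 CPM in males and from 62.7 to 75.0 CPM in females, and Cd36 from 2.53 to 8.65 CPM in males and from 60.4 to 106 CPM in females.

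Between 30 and 60 days many genes changed. Of all genes 33.1% and 22.7% were called in WT and KO females, and 31.5% and 28.4% in WT and KO males. Of the 36, 6 rose and 6 fell from 30 to 60 days in WT females, and 6 rose and 4 fell in KO females. These were 33.3% of the 36 in WT and 27.8% in KO females, near the shares of all genes. In WT males 13 rose and 4 fell (47.2%), and in KO males 13 rose and 2 fell (41.7%). The deposited log2 values are scaled to library size but not by TMM. On these values the median of all genes shifted by -0.12 to -0.21 with age. The split into risen and fallen was 3 and 8, 4 and 6, 10 and 7, and 9 and 6 in the same order. Depth was lower in nearly all 60-day libraries and cannot be told apart from age. If the library preparation run differed by age, it cannot be told apart from age either.

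In WT females Cd36 rose most, by 3.63 ± 0.34 (adjusted p = 3.7e-09), from 4.54, 5.08, 6.26 and 14.0 CPM at 30 days. Both ketone body enzymes and Hadh fell. Bdh1 stood at 360.3, 398, 360.3 and 352 CPM at 30 days and fell by 0.89 on the log2 scale to 199 CPM (adjusted p = 5.68e-09). Acat1 changed by -0.92 ± 0.11 (adjusted p = 9.07e-08) and Hadh by -0.53 ± 0.06 (adjusted p = 9.48e-08), with no overlap between the ages. In KO females the same 3 genes changed by -0.65, -0.34 and -0.20, all called. The call of Bdh1 held in all 8 fits that left out 1 liver, and those of Acat1 and Hadh in 4 of 8, with adjusted p of up to 0.107 and 0.0726. Acat1 lost it without replicate 3 or 4 of 30 days or 2 or 3 of 60 days, and Hadh without replicate 2, 3 or 4 of 30 days or 1 of 60 days.

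Slc27a2 and Acsl1, which activate fatty acids to acyl-CoA, rose with age in both sexes. Slc27a2 stood at 872, 960.2, 908 and 899 CPM in 60-day WT females and 1173, 1192, 1200 and 1073 CPM in 60-day WT males, a rise of 0.40 ± 0.09 (adjusted p = 0.000498) and 0.62 ± 0.09 (adjusted p = 1.8e-06). Acsl1 stood at 2012, 2286, 2539 and 2666 CPM in WT females of 30 days and 2985, 3163, 2699 and 3451 CPM at 60 days, a rise of 0.37 ± 0.08 (adjusted p = 0.000591), and in WT males it rose by 0.42 ± 0.08 (adjusted p = 0.000185). In KO livers of both sexes Slc27a2 and Acsl1 rose as well. On the deposited log2 values the sign held in all 4 groups, but the calls of both genes were lost in KO females.

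In WT males Cyp4a2 rose by 4.09 ± 0.24 (adjusted p = 1.17e-12) and Cyp4a3, from 524, 512, 646 and 478 CPM, by 0.90 ± 0.13 (adjusted p = 4.04e-06). Acadm stood at 636, 597, 578 and 558 CPM in WT males of 30 days and rose by 0.61 ± 0.06 (adjusted p = 2.08e-08), and Acads, from 151, 139, 150.3 and 139.8 CPM, rose by 0.54 ± 0.09 (adjusted p = 1.07e-05). In WT females the same 2 dehydrogenases moved by 0.12 and -0.06, not called. Pdk4 rose in WT males from 34.5 CPM to 111, 107, 84.7 and 128 CPM, by 1.65 ± 0.26 (adjusted p = 1.69e-05). The regulators fell in WT males: Ppargc1a by 1.59 on the log2 scale, from 3.25 ± 0.408 to 1.04 ± 0.846 CPM, and Ppara by 0.78, from 31.2 ± 4.46 to 18.3 ± 8.21 CPM. The call of Ppara was lost in 4 of 8 fits that left out 1 liver, among them the one without replicate 3 at 60 days, which stood at 6.80 CPM.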

How the data were processed

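Liver messenger RNA of 32 rats was measured by RNA sequencing, in 8 groups of 4 libraries. The authors deposited whole-number read counts per gene for 17327 genes, with 2 further lines for reads assigned to no gene, which were left out. They were no feature (up to 21.2% of reads in a library) and ambiguous (0.262% to 0.648%). The deposited log2 values of 11344 genes equal log2 CPM (counts scaled to library size) with offsets of 0.5 for the count and 1 for the library total, recomputed here to within 0.0036. The submitters' processing notes name STAR, Cufflinks, limma and the build Rnor_5.0; their roles and versions, the annotation and the strand setting are not stated there. Reads of near-identical genes can therefore not be parted, and whether all reads of overlapping genes went to the ambiguous line is not known. Time of day, feeding state and oestrous stage at collection are not stated in the labels.

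Counts were tested in R 4.3.3 with edgeR 4.0.16 (filterByExpr with a minimum count of 10, TMM scaling, robust quasi-likelihood fit of 8 group means, 24 residual degrees of freedom) in 18 contrasts, with Benjamini-Hochberg adjustment over the 11002 genes tested. The biological coefficient of variation was 0.148. The SE is the size of the log2 fold change divided by the square root of its F value, and intervals use the t distribution. The procedure was tested on simulated data. Those counts were drawn independently for each gene and library, so variation shared by many genes, such as clock phase, was not covered. Alternatives were DESeq2 1.42.0, its size factors, no filter, limma 3.58.1 on the deposited log2 values, a fit to the compared groups only, a clock score as a covariate, and each library left out in turn. Groups were taken from the sample labels, and replicate numbers follow accession order, so they pair no animals.

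Members and gene lists were chosen with earlier results of these data known. All values were given for members called in a genotype comparison or in its interactions and for the 6 called members with the smallest adjusted p in each sex or age comparison of WT livers. Of the other lists, up to 3 called genes were named per comparison of KO and WT. Results of some genes of these lists are not reported here. Cyp4a1 and the other uncalled genes given with values were chosen after their values were seen. Promoter sequences are from RefSeq (GRCr8) and were compared with Biopython 1.88.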

Additional observations from a re-analysis of the deposited data

Results flagged for a closer look

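Of 288 groups of 4 values (36 genes in 8 groups), 13 held a liver that stood apart from the other 3 by Dixon's ratio, which chance alone flags in about 1 of 20 groups. In 60-day WT females these were Ppara in replicate 2 (14.1 CPM, others 26.5 to 28.98), Fabp1 in replicate 2 (2442 CPM, others 3356 to 3450) and Pdk4 in replicate 1 (178 CPM, others 88.5 to 93.1). In 60-day WT males they were Decr1 in replicate 3 (254.5 CPM, others 153 to 166) and Cyp4a1 in replicate 1 (107 CPM, others 29.5 to 42.7). The 60-day KO livers held Ehhadh in male replicate 1 (384 CPM, others 489.9 to 512), Acsl1 in male replicate 3 (3614 CPM, others 3448 to 3457) and Cyp4a3 in female replicate 4 (501 CPM, others 558 to 569).

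In 30-day KO females they were Slc25a20, the carnitine-acylcarnitine carrier, in replicate 3 (107 CPM, others 115 to 116), Hadh in replicate 1 (198 CPM, others 239 to 243) and Cyp4a2 in replicate 3 (38.8 CPM, others 61.2 to 64.4). The last 2 were Cpt2, the inner carnitine palmitoyltransferase, in WT male replicate 3 of 30 days (113 CPM, others 85.9 to 90.1) and Hadhb in KO male replicate 1 of 30 days (195 CPM, others 215 to 216). The low Fabp1 value bears on a called difference: without that liver the rise of Fabp1 in 60-day KO females was 0.41 (adjusted p = 0.0983, edgeR). The low Hadh value lies in a group that enters the change of its KO effect with age, and without that liver that change was not called.

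Differences between groups were flagged by 17 interaction terms of the edgeR fit. The KO effect in females changed from 30 to 60 days for Hadh (0.33), Eci2 (-0.55) and Acat1 (0.58). The sex difference in WT livers changed with age for Acads (0.61), Acadm (0.49), Hadh (0.66), Acaa2 (0.84), Bdh1 (0.58), Acat1 (0.55), Cd36 (-4.24) and Cyp4a2 (3.63). In KO livers it changed for Acadm (0.33), Hadh (0.36), Eci2 (0.38), Bdh1 (0.54), Cd36 (-3.04) and Cyp4a2 (3.67).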

How the results depend on the processing

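Of 123 calls of single members over all comparisons, DESeq2 made 123, edgeR with DESeq2's size factors 122, edgeR without a filter 117, limma on the deposited log2 values 104 and the fits to the compared groups only 96. In all fits with 1 library left out, 990 of 1120 calls were made again, and none of these alternatives reversed a called direction. For KO against WT in 60-day females the 10 called members became 0 in the fit to the compared groups only and 2 with the clock score as a covariate, and all genes called went from 745 to 56 and 62. The fit to the compared groups has fewer samples to estimate the spread and sets its own filter and scaling. The cause was not tested for it or for the clock score. The fit to the compared groups also left 1 member (Cyp4a2) for sex in 30-day WT and 1 (Eci2) for age by genotype in females. DESeq2 gave 1 member in 30-day females, 1 in 60-day males, 7 for sex in 30-day KO and 2 for sex by genotype at 60 days; the cause was not tested.

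With each library left out, counts ran from 6 to 12 for KO against WT in 60-day females and from 0 to 1 in 60-day males, where the 1 came without WT replicate 4. For sex they ran from 2 to 4 in 30-day WT (lowest without female replicate 4 or male replicate 3), 2 to 4 in 30-day KO (lowest without female replicate 3 or male replicate 2 or 4), 18 to 23 in 60-day WT and 11 to 13 in 60-day KO. For age they ran from 10 to 13 in WT females, 6 to 10 in KO females (lowest without replicate 4 of 30 days), 14 to 19 in WT males and 13 to 15 in KO males. For age by genotype in females they ran from 1 to 4, with 1 without replicate 2 of 30-day WT, 1 of 30-day KO, 2 or 3 of 60-day WT, or 1 or 4 of 60-day KO. Sex by age gave 8 to 9 in WT and 4 to 8 in KO, and the remaining comparisons gave 0 throughout.

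No paired analysis was possible because replicate numbers here follow accession order and no label links animals of different groups. With the numbers in the titles of the 30-day samples as a covariate, 0 members were called in either sex, as in a fit to the 30-day libraries only, which was chosen after seeing the data. Lowly counted genes such as Fgf21 carry counting error beside the spread between livers.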
